A study of Mus musculus with 6 samples.

Results

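Transcripts of 10 genes around the glucocorticoid receptor were followed in RNA-seq of mouse intestine, and in 3 libraries of each genotype no HET value of any of them overlapped a WT value. Such separation was common: of 11870 genes tested, 16.0% had every HET value above every WT value and 43.8% had every HET value below. The 10 genes were picked by symbol out of 25416 rows of a table of FPKM (fragment counts scaled to transcript length and library total, so levels are per length), after their levels in these libraries were known. For that reason their differences between the genotypes are given as a description, with no test. The HET libraries came from intestine of mice carrying the S254D substitution in Rnf111, a gene for a ubiquitin ligase known for its role in TGF-beta signalling, and the WT libraries came from intestine with the wild-type gene. The labels give no treatment, age, sex, strain, intestinal segment, hour of collection or number of animals for either genotype. In both, polyadenylated RNA had been captured on oligo(dT) beads before SMARTER library preparation.

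Glucocorticoids such as corticosterone enter cells and bind the glucocorticoid receptor, which is held by Hsp90 and its co-chaperones, moves to the nucleus and changes transcription at sites in DNA. The mineralocorticoid receptor, its close relative, binds the same hormones and aldosterone, and enzymes in the target cell either regenerate active glucocorticoid or inactivate it. In the intestine these hormones are known to act on salt transport, on enterocyte maturation and on immune cells. The 10 genes comprise both receptors (Nr3c1, Nr3c2), the 2 enzymes (Hsd11b1, Hsd11b2) and 6 genes that glucocorticoids are known to induce in many tissues (Fkbp5, Sgk1, Tsc22d3, Zbtb16, Ddit4, Klf9).

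The receptor is known to bind a palindrome of the arms AGAACA and TGTTCT spaced by 3 bases, and the reference sequence before the start of the induced genes shows where such letters occur. RefSeq promoters of build GRCm38.p6, running from 250 bases before to 50 bases after the annotated start, were found for 7 of the 10 genes, 14 promoters in all. Sgk1 and Tsc22d3 had several each, not all of which hold the motifs below. The whole palindrome of AGAACA, any 3 bases and TGTTCT, searched on both strands, was in 3 of 32851 promoters of the genome (0.00913%), and 1 of these belonged to Sgk1, at chr10:21993640-21993939 on the plus strand. Its first base lay 189 bases before the start, and capitals mark it and a further single arm 242 bases before the start.
Sgk1: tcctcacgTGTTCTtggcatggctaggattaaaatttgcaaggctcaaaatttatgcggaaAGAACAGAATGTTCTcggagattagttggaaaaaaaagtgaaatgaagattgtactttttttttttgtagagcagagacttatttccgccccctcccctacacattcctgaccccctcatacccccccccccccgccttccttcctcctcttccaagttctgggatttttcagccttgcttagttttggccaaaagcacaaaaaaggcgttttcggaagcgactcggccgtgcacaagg
A single arm, AGAACA or TGTTCT, was common, at 19.0% of all promoters, and was in 4 of the 14 promoters here, 3 of Sgk1 and 1 of Tsc22d3. The Tsc22d3 promoter that holds it, among several of that gene, lies at chrX:140600473-140600772 on the minus strand. Its arm, in capitals, began 185 bases before the start.
Tsc22d3: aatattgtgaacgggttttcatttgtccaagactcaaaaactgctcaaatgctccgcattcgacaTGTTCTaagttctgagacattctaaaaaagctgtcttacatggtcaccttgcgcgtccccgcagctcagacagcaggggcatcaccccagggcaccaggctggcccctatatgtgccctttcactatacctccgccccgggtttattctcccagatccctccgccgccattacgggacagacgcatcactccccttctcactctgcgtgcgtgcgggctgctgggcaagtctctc
The E-box CACGTG, the letters bound by the clock factors Clock and Arntl among others, was in 7.15% of all promoters. It was in 2 of the 14 here, that of Fkbp5 and the Sgk1 promoter with the palindrome. In Sgk1 it shared 2 bases with the arm at 242 bases before the start. In Fkbp5, at chr17:28486100-28486399 on the minus strand, it began 169 bases before the start and is in capitals below.
Fkbp5: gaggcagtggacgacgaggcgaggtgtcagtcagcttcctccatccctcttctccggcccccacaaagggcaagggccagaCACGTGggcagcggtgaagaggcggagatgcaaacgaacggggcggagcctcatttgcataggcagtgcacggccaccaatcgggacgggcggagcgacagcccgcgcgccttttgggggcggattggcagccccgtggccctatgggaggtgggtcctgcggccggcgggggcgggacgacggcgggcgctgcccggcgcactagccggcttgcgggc
These letters describe the windows and are no evidence of binding, and an FPKM value per gene does not tell which of several start sites was used. Much glucocorticoid receptor binding is known to lie far from start sites, outside such windows.

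Both receptor genes were lower in HET intestine. Nr3c1, which encodes the glucocorticoid receptor, had 15.7, 17.4 and 16.0 FPKM in HET libraries, against 20.0, 21.7 and 21.0 FPKM in WT libraries. Every HET library lay below every WT library, and the means were 16.4 ± 0.920 FPKM in HET and 20.9 ± 0.874 FPKM in WT (SD, n = 3 each). The ratio of means was 0.783, a log2 difference of -0.34 (SE 0.05) on the scale of log2(FPKM + 1), which is used for all log2 values here. Nr3c2, which encodes the mineralocorticoid receptor, had 5.41, 5.91 and 5.55 FPKM in HET libraries, against 7.76, 8.34 and 8.04 FPKM in WT libraries. Its ratio was lower, 0.699, with a log2 difference of -0.45 (SE 0.04). As a result the level of Nr3c1 relative to Nr3c2 was 2.90, 2.94 and 2.88 in HET libraries, against 2.58, 2.61 and 2.61 in WT libraries. The ranges of that ratio did not overlap and were narrow within each genotype.

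The 2 enzymes of local glucocorticoid metabolism lay in opposite directions. Hsd11b1 encodes the enzyme that regenerates active glucocorticoid from its inactive keto form, and it had 1.32, 2.33 and 1.84 FPKM in HET libraries, against 3.56, 3.47 and 3.65 FPKM in WT libraries. Its mean was 1.95-fold lower in HET, 1.83 ± 0.505 FPKM against 3.56 ± 0.0923 FPKM in WT (SD, n = 3 each), and the HET libraries were spread far more widely than the WT libraries. Hsd11b2 encodes the enzyme that inactivates glucocorticoid and so shields the mineralocorticoid receptor, and it had 5.17, 3.69 and 3.65 FPKM in HET libraries, against 2.00, 2.75 and 2.78 FPKM in WT libraries. The ratio of means was 1.66, with 4.17 ± 0.863 FPKM in HET and 2.51 ± 0.442 FPKM in WT. HET replicate 1 had both the lowest Hsd11b1 and the highest Hsd11b2 of all 6 libraries. The level of Hsd11b2 relative to Hsd11b1 was therefore 3.93 in that library and 1.59 and 1.99 in the other HET libraries, against 0.562, 0.793 and 0.763 in WT libraries. Hsd11b2 was the more abundant of the pair in every HET library and the less abundant in every WT library.

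Of the 6 induced genes chosen here, Fkbp5 and Sgk1 had the largest log2 differences from WT. Some genes of the wider list described later exceeded Sgk1, and Mt2 of that list, at 3.26, also exceeded Fkbp5. Fkbp5 encodes a co-chaperone that lowers the hormone affinity of the receptor, a feedback on its own inducer. It had 35.6, 36.2 and 36.0 FPKM in HET libraries, against 3.13, 3.43 and 3.41 FPKM in WT libraries. The ratio of means was 10.8 and the log2 difference 3.10 (SE 0.03), and among the 11870 genes that passed the filter on low values (3 or more libraries with an FPKM of 1 or higher) it ranked 4 by size of rise. Its HET values were also nearly alike, with a coefficient of variation of 0.840%, against 4.94% in WT. Fkbp5 relative to Nr3c1 was 2.27, 2.08 and 2.25 in HET libraries, against 0.157, 0.158 and 0.162 in WT libraries, so that the co-chaperone transcript exceeded the receptor's in HET intestine only. Its relative Fkbp4, which in contrast favours receptor transport to the nucleus, remained more abundant than Fkbp5, but its level over that of Fkbp5 was 3.84, 3.46 and 3.23 in HET libraries, against 32.4, 29.2 and 29.8 in WT libraries.

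Sgk1 encodes a kinase that raises sodium transport and is induced by both receptors. It had 70.2, 118.9 and 116.8 FPKM in HET libraries, against 15.3, 17.02 and 16.0 FPKM in WT libraries. HET replicate 1 was well below the other HET libraries, and still far above each WT library. The mean was 102 ± 27.6 FPKM in HET and 16.1 ± 0.869 FPKM in WT (SD, n = 3 each), a ratio of 6.33, and that ratio lay between 5.80 and 7.31 with any 1 library left out. Sgk1 was the most abundant of the 10 transcripts in HET intestine and only the third in WT, after Tsc22d3 and Nr3c1.

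Tsc22d3, also called Gilz, encodes an anti-inflammatory mediator of glucocorticoids, and it had 43.4, 55.5 and 49.0 FPKM in HET libraries, against 24.7, 25.7 and 24.8 FPKM in WT libraries. The ratio of means was 1.97. Ddit4, which encodes an inhibitor of mTORC1 that also responds to hypoxia and to stress, had 14.2, 14.1 and 13.7 FPKM in HET libraries, against 9.33, 8.57 and 9.29 FPKM in WT libraries. This ratio of 1.55 was smaller than that of Tsc22d3, with less scatter among HET libraries. Zbtb16 (PLZF), a transcription factor gene that is among the most inducible by glucocorticoids in many cells, was scarce throughout. It had 0.448, 0.689 and 0.663 FPKM in HET libraries, against 0.101, 0.0916 and 0.128 FPKM in WT libraries, and did not reach the filter. The ratio of means was 5.62, which rests on roughly 45 to 78 fragments in each HET library and 10 to 17 in each WT library. On the log2(FPKM + 1) scale the difference of Zbtb16 was only 0.53 (SE 0.07), and with a pseudocount of 0.1 it was 1.74.

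Klf9, which encodes a transcription factor induced by glucocorticoids and thyroid hormone, lay the other way. It had 3.38, 4.50 and 3.60 FPKM in HET libraries, against 6.35, 5.73 and 6.56 FPKM in WT libraries. Its mean was 1.62-fold lower in HET, 3.83 ± 0.594 FPKM against 6.21 ± 0.434 FPKM in WT (SD, n = 3 each). Klf9 was the only 1 of the 6 induced genes that was lower in HET intestine.

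**Figure D1:**
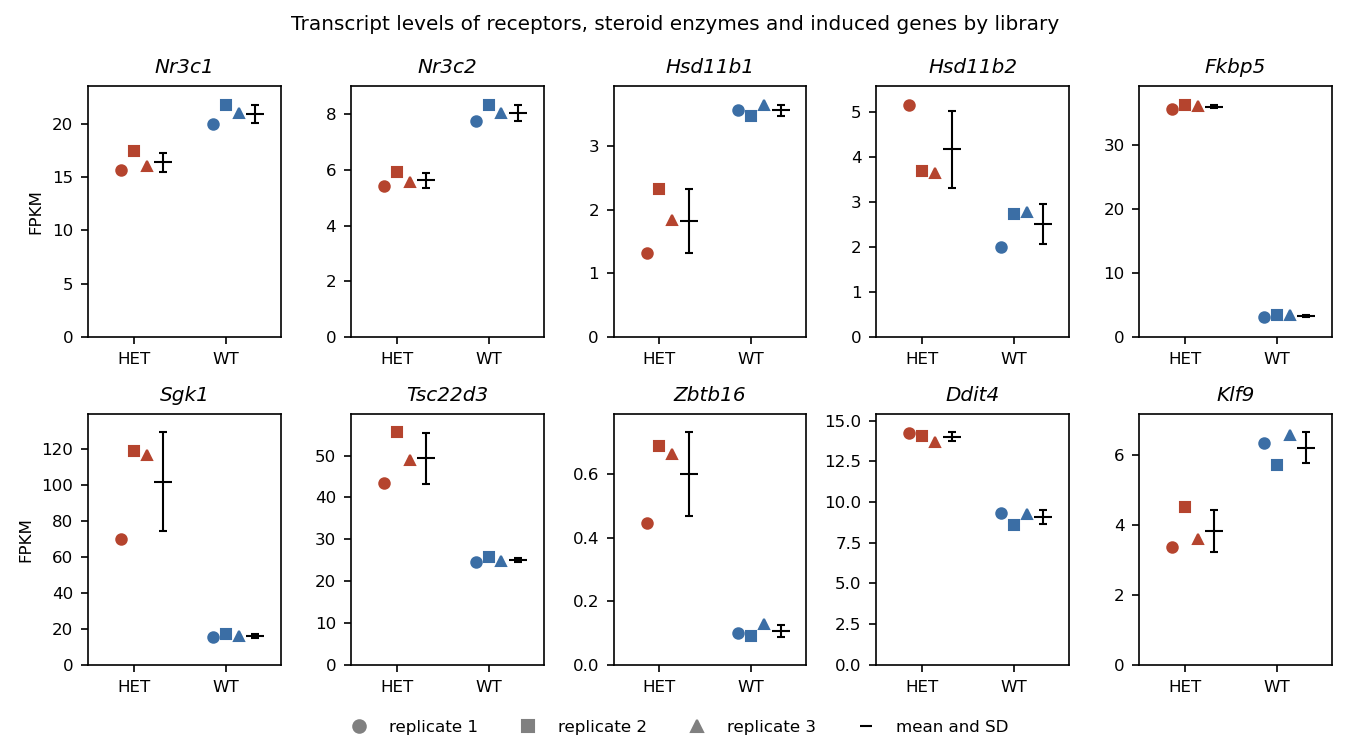
FPKM of each of the 10 genes (vertical axes, each starting at 0) in the 3 HET and 3 WT libraries, with marker shapes for replicate numbers and bars for mean and SD. No panel has overlapping genotypes: Hsd11b2, Fkbp5, Sgk1, Tsc22d3, Zbtb16 and Ddit4 are higher in HET, and Nr3c1, Nr3c2, Hsd11b1 and Klf9 are lower.

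In all, 6 of the 10 genes had every HET value above every WT value and 4 had every HET value below. Over the 11870 genes tested, 16.0% had every HET value above every WT value and 43.8% had every HET value below. Of the 9 genes that passed the filter, 5 were called higher and 4 lower by limma (adjusted p under 0.05), where 10.7% of all genes tested were called higher and 35.7% lower. The genes were taken up because of this same contrast, so nothing is read from these counts. Within the HET libraries, replicate 1 was the lowest and replicate 2 the highest for 8 of the 10 genes, all but Hsd11b2 and Ddit4, including genes that lay above WT and genes that lay below it.

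**Figure D2:**
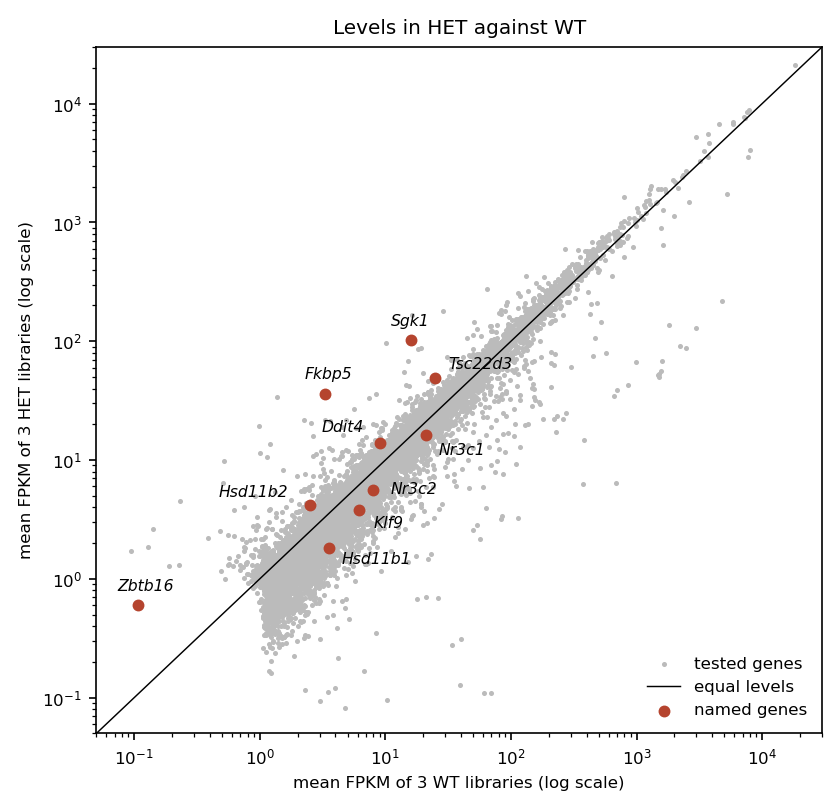
Mean FPKM in HET libraries (vertical axis, log scale) against mean FPKM in WT libraries (horizontal axis, log scale) for the 11870 genes tested. The genes of this report are named, and a line marks equal levels. Fkbp5 and Sgk1 lie far above that line (log2 differences 3.10 and 2.55), while Nr3c1 and Nr3c2 lie a little below it (-0.34 and -0.45).

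The median log2 fold change of all genes tested was -0.12. It matters for the small differences, since FPKM is relative to the library's total and more genes were called lower (4235) than higher (1269). With median-ratio scaling, which sets the typical gene to no change (median log2 fold change 0.00), the calls were 2732 higher and 2925 lower, and with quantile normalisation (median 0.04) they were 2936 higher and 2165 lower. All 10 genes kept their direction in each of the 16 other settings tried. The log2 difference of Nr3c1 was -0.21 with median-ratio scaling and -0.26 with quantile normalisation, and that of Nr3c2 was -0.33 and -0.29. Klf9 moved to -0.47 and -0.40, and Hsd11b1 to -0.61 and -0.44. Fkbp5, at 3.22 and 3.26, and Sgk1, at 2.68 and 2.61, changed little in proportion. The ratio of the scarce Zbtb16 was 6.19 with median-ratio scaling and 9.92 with quantile normalisation, where that of Sgk1 was 6.97 and 6.62.

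**Figure D3:**
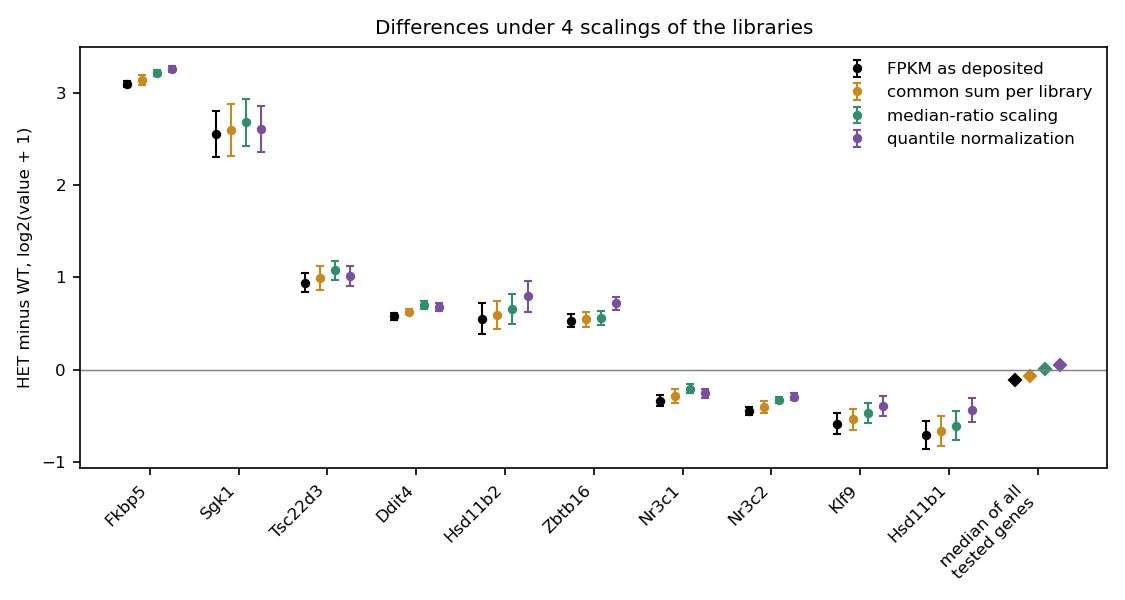
Log2 difference of HET over WT (vertical axis) for each of the 10 genes (horizontal axis) under 4 scalings of the libraries, with bars for the SE. Diamonds at the right mark the median of all tested genes under each scaling. Every gene stays on its side of 0, and the genes nearest to 0 are Nr3c1 and Nr3c2.

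A list of 38 other genes that glucocorticoids are known to induce did not move as a block. Of 32 tested, 12 rose (37.5%) and 9 fell (28.1%), against 10.7% and 35.7% of all genes tested. The median log2 fold change of the list was 0.02, against -0.12 over all genes tested. Fbxo32 was tested through its WT levels alone, and Tat, Fam107a, Cd163, Trim63, Igfbp1 and Hif3a did not reach the filter. The largest rises were in genes of fuel use and metal handling. Angptl4, an inhibitor of lipoprotein lipase, had 13.3, 13.1 and 14.3 FPKM in HET libraries, against 1.15, 1.19 and 1.25 FPKM in WT libraries (11.4-fold, limma adjusted p = 1.4e-06). Pdk4, which restrains glucose oxidation, rose 9.33-fold (adjusted p = 0.000212), and Pck1, the gluconeogenic enzyme, averaged 181 ± 53.9 FPKM in HET and 28.6 ± 4.88 FPKM in WT (6.34-fold, adjusted p = 0.000326). The metallothioneins Mt2 and Mt1, which also respond to zinc, averaged 165 ± 31.1 and 276 ± 55.4 FPKM in HET, against 16.2 ± 1.44 and 63.9 ± 3.09 FPKM in WT. These are rises of 10.2-fold and 4.32-fold (adjusted p = 2.07e-05 and 0.000127).

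Smaller rises of the same list were in regulators. Per1, a clock gene with a known glucocorticoid response, averaged 4.61 ± 0.188 FPKM in HET and 1.76 ± 0.0694 FPKM in WT (2.62-fold, adjusted p = 8.72e-05). Nfkbia, which encodes the inhibitor of NF-kB, rose 1.45-fold and Cebpd, a transcription factor gene, 1.69-fold. The genes that fell include Fbxo32, a ubiquitin ligase gene of muscle wasting, at 0.438 ± 0.0596 FPKM in HET and 1.68 ± 0.125 FPKM in WT (adjusted p = 0.000198). Anxa1, an anti-inflammatory mediator, fell 2.45-fold, and Thbd, Rgs2 and Pik3ip1 fell 3.17-fold, 2.19-fold and 2.02-fold. Tgm2, Dusp1 and Nfil3 fell 1.57-fold, 1.49-fold and 1.48-fold, the last 2 of these without a call under quantile normalisation. With a mean FPKM of at least 5 required, 3 in place of 9 genes of the list fell, with the scarcer genes no longer tested. The single arm AGAACA or TGTTCT was in 15.8% of the 38 RefSeq promoters matched to this list, against 19.0% of all promoters, the E-box in 10.5%, and the whole palindrome in 0.

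**Figure D4:**
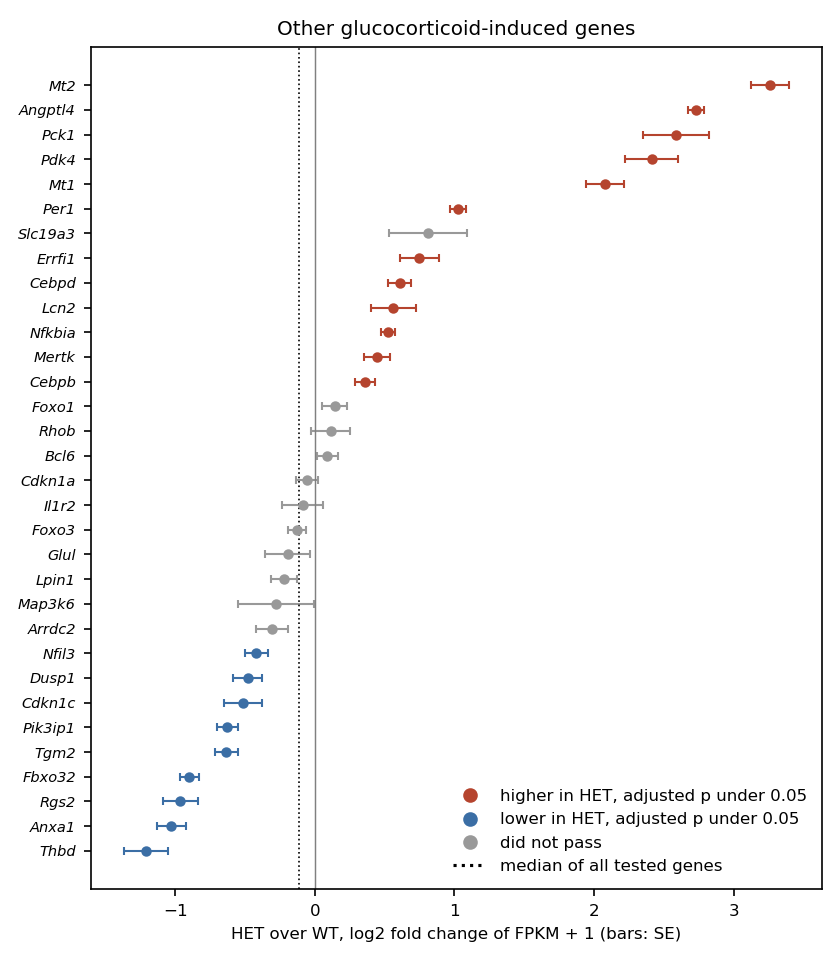
Log2 fold change of HET over WT (horizontal axis) for the 32 tested genes of the list of other glucocorticoid-induced genes, with bars for the SE and colours for the limma call. Angptl4, Mt2, Pck1, Pdk4 and Mt1 lie apart on the right, and Thbd and Anxa1 are furthest to the left.

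Of 19 chaperones and transcriptional cofactors of the receptor tested, 6 rose (31.6%) and 5 fell (26.3%), against 10.7% and 35.7% of all genes tested. The list median was -0.01. Hspa8, the constitutive Hsp70 that loads the receptor onto Hsp90, averaged 583 ± 41.0 FPKM in HET and 343 ± 3.58 FPKM in WT (1.70-fold, adjusted p = 0.000433). Dnaja1 and Stip1, its partners in that step, rose 1.38-fold and 1.27-fold. The corepressor gene Ncor1 fell 1.38-fold, the Mediator subunit gene Med1 1.31-fold and the coactivator gene Ncoa2 1.26-fold. The count of falls depended on scaling, with 2 under median-ratio scaling and 1 under quantile normalisation.

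Genes of steroid synthesis and clearance were tested in 9 of 18 cases, and the rest did not reach the filter. Of the 9, 3 were higher (33.3%) and 2 lower (22.2%), against 10.7% and 35.7% of all genes tested. Cyp11b1, the last enzyme of corticosterone synthesis, was listed at 0 in 5 of the 6 libraries, and Cyp11b2, the aldosterone synthase gene, and Serpina6, which encodes the corticosteroid carrier of plasma, were listed at 0 in all. Cyp11a1, which starts steroid synthesis, had 0.276, 0.174 and 0.188 FPKM in HET libraries, against 0.0926, 0.142 and 0.131 FPKM in WT libraries, below the filter. Por, the electron donor of microsomal cytochromes, rose 1.78-fold (adjusted p = 0.00115), Abcb1a, an efflux pump that carries corticosteroids, 1.76-fold, and Nr5a2, a nuclear receptor that drives steroid synthesis in the intestine, 1.39-fold. H6pd, which supplies the cofactor of the Hsd11b1 enzyme, fell 1.34-fold, in the same direction as Hsd11b1, and lost its call under median-ratio scaling and quantile normalisation. Fdxr fell 1.29-fold (adjusted p = 0.0441), a call lost in 10 of the 16 other settings, among them those without HET replicate 2, HET replicate 3 or any 1 WT library. The count of rises was 6 under median-ratio scaling and 5 under quantile normalisation or without HET replicate 3.

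The list labelled aldosterone-regulated salt transport also holds relatives of Sgk1 and ion transporters of the gut in general. Of its 12 genes tested, 7 rose (58.3%) and 2 fell (16.7%), against 10.7% and 35.7% of all genes tested. The list median was 0.26. Usp2, a deubiquitinase gene induced by aldosterone in kidney, rose 1.59-fold, Sgk2, a relative of Sgk1, 1.54-fold, and Slc26a3, the chloride exchanger of the gut surface, 1.27-fold. Slc9a3, the sodium-hydrogen exchanger NHE3, which glucocorticoids are known to raise in intestine, averaged 18.1 ± 1.94 FPKM in HET and 38.01 ± 4.51 FPKM in WT, a 2.10-fold fall (adjusted p = 0.000511). Sgk3, another relative of Sgk1, fell 2.64-fold. Of the epithelial sodium channel, Scnn1a had 2.93, 2.83 and 3.28 FPKM in HET libraries, against 2.96, 2.86 and 3.42 FPKM in WT libraries, while Scnn1g was listed at 0 in every library and Scnn1b in 5 of 6.

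By limma, 35.7% of all genes tested were called lower and 10.7% higher. Inflammatory genes that glucocorticoids are known to repress had 6 of 10 tested lower and 0 higher. At an unadjusted p under 0.05, 1 was higher. That 1 gene was Nos2, the inducible nitric oxide synthase, with 5.18, 5.03 and 10.2 FPKM in HET libraries, against 3.26, 1.84 and 4.89 FPKM in WT libraries (adjusted p = 0.0677). A count of 1 higher was also given by limma with no filter, quantile normalisation, the replicate block or array weights, and without HET replicate 3 or WT replicate 3. Tnf averaged 0.530 ± 0.151 FPKM in HET and 1.49 ± 0.115 FPKM in WT, Il1b 0.745 ± 0.262 FPKM in HET and 2.04 ± 0.361 FPKM in WT, and Il1a 0.321 ± 0.131 FPKM in HET and 1.24 ± 0.181 FPKM in WT. All 3 are scarce, and Tnf and Il1a reached the filter only through WT libraries. The count of falls was 3 under median-ratio scaling and 2 with a mean FPKM of at least 5. Without WT replicate 1, 2 and 3 it was 2, 2 and 3. The macrophage and dendritic cell markers, which mark a source of these cytokines, were also lower in 10 of 10, with summed levels of 87.2 to 147 FPKM in HET and 217 to 236 FPKM in WT, and their part in the result was not tested.

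Per1 and Klf9 are known to follow both the clock and glucocorticoids. Of 17 clock genes tested, which again include Per1 and Nfil3, 9 rose (52.9%) and 4 fell (23.5%). Of all genes tested, 10.7% rose and 35.7% fell. The list median was 0.37. Among the rises, Ciart passed the filter through HET levels alone. Besides Per1, Per2 averaged 5.54 ± 0.277 FPKM in HET and 2.46 ± 0.223 FPKM in WT (2.25-fold, adjusted p = 0.000199), and Tef rose 1.56-fold. Nr1d1, the repressor Rev-erb alpha, averaged 23.4 ± 0.345 FPKM in HET and 43.0 ± 3.04 FPKM in WT (1.84-fold lower, adjusted p = 0.000199), and Arntl (Bmal1), which encodes the activator, fell 1.69-fold. Since the hour of collection is not given, genotype and hour cannot be told apart for these genes or for any gene above that follows the daily glucocorticoid rhythm.

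Ddit4 also belongs to the ATF4 and hypoxia responses, so both were read beside it. Of 10 other ATF4 targets and stress genes tested, 1 rose (10%) and 4 fell (40%), near the 10.7% and 35.7% of all genes tested. Atf4 itself was 1.21-fold higher, and Atf3, Asns and Ddit3 fell 1.59-fold, 1.54-fold and 1.26-fold. The count of falls was 2 under median-ratio scaling and 2 without WT replicate 1. Of 11 hypoxia genes tested, 4 rose (36.4%) and 0 fell, beside the same shares of all genes. The counts were the same at an unadjusted p under 0.05, and 7 rose under median-ratio scaling and 8 under quantile normalisation. Ndrg1 rose 1.66-fold, Bnip3 1.36-fold and Pgk1 1.31-fold.

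Markers of cell types differed between the genotypes, and bulk RNA cannot tell fewer cells of a type from less RNA per cell. All marker counts below stand beside 10.7% of all genes tested called higher and 35.7% called lower. Epithelial markers summed to 5059 to 5838 FPKM in HET libraries and 5109 to 5246 FPKM in WT libraries, and 2 of 10 rose and 0 fell, or 3 and 0 at an unadjusted p under 0.05. Under median-ratio scaling 5 of these markers rose, with array weights 5 rose and 2 fell, and 1 fell without HET replicate 1 or 3. Fibroblast markers fell in 9 of 9 tested, with a median log2 fold change of -1.91 and sums of 23.6 to 36.7 FPKM in HET and 140 to 159 FPKM in WT. One of the 9, Col6a3, passed the filter through WT levels alone. Collagen gene Col3a1 fell 6.71-fold and Dcn 3.88-fold. Smooth muscle markers fell in 10 of 10, with sums of 204 to 247 FPKM in HET and 355 to 387 FPKM in WT, and endothelial markers in 9 of 10, with sums of 31.7 to 49.1 FPKM in HET and 75.0 to 76.7 FPKM in WT. Of the endothelial markers, Tek passed the filter through WT levels alone. None of the 29 markers tested in these 3 lists rose by limma, also at an unadjusted p under 0.05. Hsd11b1, Nr3c1, Klf9, Thbd and Anxa1 are known to be expressed in stromal or endothelial cells, and the part of these cells in their lower levels was not tested.

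T and NK cell markers fell in 10 of 10, with sums of 141 to 199 FPKM in HET and 283 to 354 FPKM in WT. Tsc22d3 and Zbtb16 are also genes of lymphocytes, and the part of these cells in their levels was not tested. B and plasma cell markers fell in 8 of 8, and Jchain, the most abundant, averaged 643 ± 199 FPKM in HET and 1613 ± 29.9 FPKM in WT. Mast cell markers rose in 5 of 6 tested and 1 fell, with sums of 34.5 to 68.0 FPKM in HET and 3.99 to 6.20 FPKM in WT. The mast cell proteases Mcpt1 and Mcpt2 rose 24.7-fold and 18.7-fold, Ms4a2, a receptor subunit of these cells, was listed at 0 in every WT library, and 4 of the list passed the filter through HET levels alone. The marker that fell was Kit, with 1.23, 1.57 and 1.63 FPKM in HET libraries, against 2.35, 1.86 and 2.62 FPKM in WT libraries. Hdc, below the filter, overlapped, with 0.251, 0.423 and 0.415 FPKM in HET libraries, against 0.296, 0.446 and 0.397 FPKM in WT libraries. Sums of the adipocyte list, 104 to 195 FPKM in HET and 82.5 to 228 FPKM in WT, overlapped, with 1 of 7 markers higher and 0 lower, or 2 and 0 at an unadjusted p under 0.05. Without WT replicate 2 the adipocyte calls turned to 0 higher and 1 lower. The neutrophil list had 0 of 8 markers above the filter, and of the enteric neuron and glia list Vip alone was tested, at 16.5 ± 2.11 FPKM in HET and 14.5 ± 0.319 FPKM in WT. The part of mast cells and lymphocytes in the levels of the 10 genes was not tested.

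Defining markers of colon and terminal ileum were at or near 0 in both genotypes, with Car1 listed at 0 in all libraries, Hoxb13 at no more than 0.119 FPKM, and Slc10a2 and Fabp6, markers of the distal small intestine, at no more than 0.571 FPKM. Of proximal markers 2 of 7 rose and 0 fell by limma, with 1 lower at an unadjusted p under 0.05. That count of 0 became 1 with no filter, with the replicate block or without HET replicate 2 or 3, 2 with array weights and 3 without HET replicate 1. Of distal markers 0 of 6 rose and 1 fell, with 1 higher and 2 lower unadjusted, and the direction of these calls was not stable. Median-ratio scaling gave 2 higher and 0 lower, quantile normalisation 1 higher and 0 lower, and the fall was also lost without any 1 WT library or with a mean FPKM of at least 5. Of colon markers 0 of 4 rose and 1 fell, with 2 higher unadjusted. The fall in the colon list was in Ang4, an antimicrobial protein gene also made by Paneth cells, at 1.45, 3.08 and 14.8 FPKM in HET libraries and 720, 282 and 1044 FPKM in WT libraries.

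**Figure D5:**
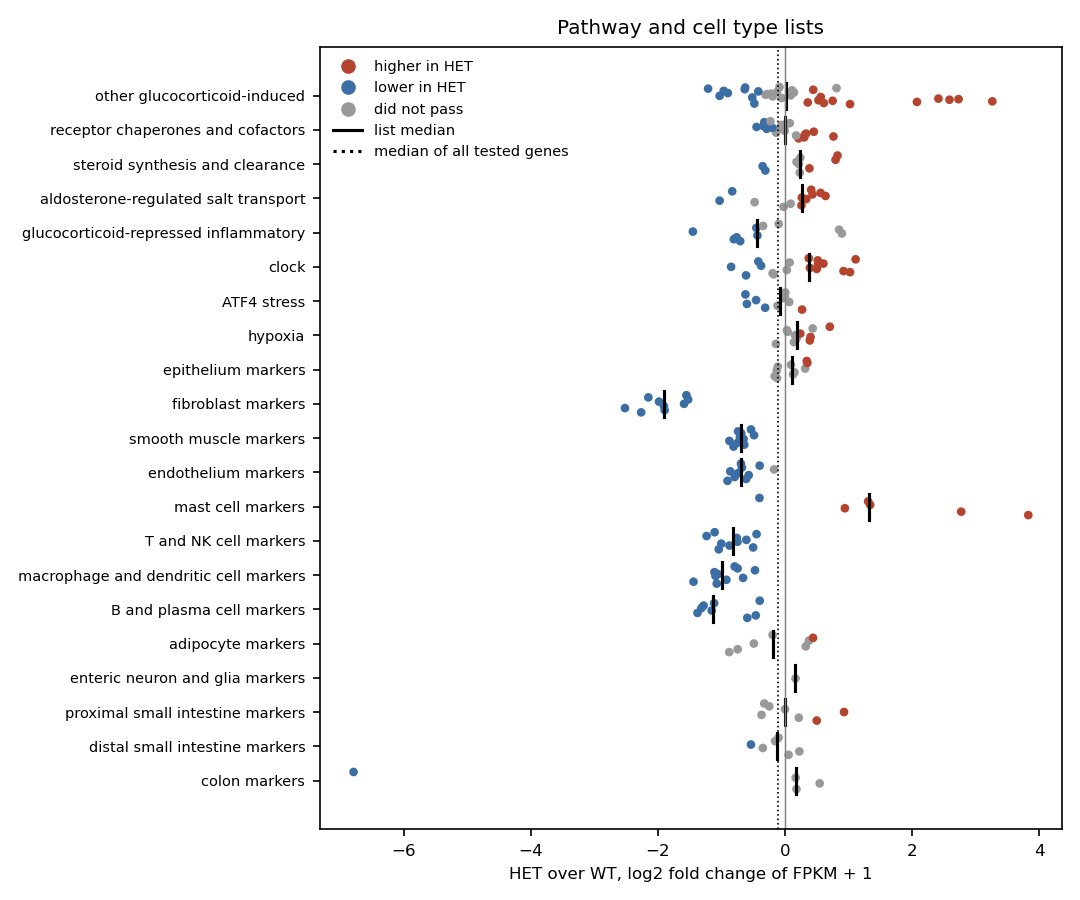
Log2 fold change of HET over WT (horizontal axis) for each tested gene of the pathway and cell type lists (rows), with colours for the limma call, a bar for the list median and a dotted line for the median of all genes. Fibroblast markers centre on -1.91 and mast cell markers on 1.32, while the median of the other glucocorticoid-induced genes is 0.02.

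The genes whose profile over the 6 libraries lay nearest to that of Fkbp5, by root-mean-square distance on the log2 scale from the WT mean, were Mt2 (0.207), Angptl4 (0.263), Mcpt2 (0.355), Sgk1 (0.455) and Pck1 (0.467). Nearest to Sgk1 were Pck1 (0.130), Mcpt2 (0.207), Pdk4 (0.234), Eif4ebp3 (0.264) and Angptl4 (0.270). Pck1, like Sgk1, was lowest among HET libraries in replicate 1, with 121 FPKM there and 225 and 197 FPKM in the others, against 28.0, 33.7 and 24.0 FPKM in WT libraries. Angptl4, like Fkbp5, varied little among HET libraries. Mcpt2, with 0.475, 0.540 and 0.553 FPKM in WT libraries, passed the filter through HET levels alone. The likenesses rest on 6 libraries and on a difference between genotypes that all of these genes share, and nothing further is read from them.

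Over the libraries as a whole, summed FPKM lay between 469968 and 510568 in HET and between 493950 and 520095 in WT, and mitochondrial transcripts made up 15.4% to 18.3% in HET and 13.9% to 15.5% in WT. The lowest FPKM values gave a rough depth of between 19500000 and 22000000 fragments for HET libraries and between 20300000 and 26300000 for WT libraries. Rnf111 itself averaged 4.50 ± 0.296 FPKM in HET and 5.20 ± 0.200 FPKM in WT (limma adjusted p = 0.0609), and since the substitution changes a residue of the protein, its transcript level does not check the labels.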

How the data were processed

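The authors deposited 1 table of FPKM values per gene for 6 intestinal libraries, with columns titled as the samples. Genome build GRCm39 is named in the submitters' processing notes. Aligner, counting tool, annotation and strand setting: not given in the sources used here. Reads of a gene and of an antisense partner may therefore be mixed. A count table named in the labels was not used here.

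A gene entered the test when 3 or more libraries had an FPKM of 1 or higher, and limma 3.58.1 (R 4.3.3) was fitted to log2(FPKM + 1) (eBayes with trend, genotype as the only term, Benjamini-Hochberg adjusted p under 0.05), checked on simulated data. This pseudocount understates fold changes of scarce genes, so ratios are of mean FPKM. Depth was estimated roughly from the lowest FPKM values and GENCODE M21 transcript lengths. A symbol on 2 rows (Ddit3) was read from the row of higher mean. Promoters were read with Python 3.11.15, pandas 2.3.3 and numpy 2.4.6, and figures drawn with matplotlib 3.10.9.

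The 10 genes and all 22 lists were chosen with earlier results of these data known. Beyond the 10, up to 8 called genes per direction were named in the list of induced genes, up to 3 in other pathway lists, and the 2 most abundant markers in marker lists at most, by moderated statistic or mean level. Scnn1a, Cyp11a1, Nos2, Col6a3, Tek, Ciart, Kit, Hdc and genes listed at or near 0 were named after their values were seen. No 2 libraries were identical (0 pairs). The labels do not say that libraries came from separate animals, and p-values then reflect only how far these 6 libraries scatter, which may be technical. Alternatives were pseudocounts 0.1 and 0.01, no filter, a mean FPKM of at least 5, 3 scalings, array weights, eBayes without trend, a block for the replicate number, and leaving out each library.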

Additional observations from a re-analysis of the deposited data

How the results depend on the processing

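All 10 genes kept their direction, with no overlap of the genotypes, in the settings tried. No gene named by its call in the pathway lists, or among the nearest profiles, changed sign. The sign was not followed for the marker genes or for genes named after their values were seen. The majority of calls over all genes did turn, from lower to higher, under quantile normalisation. With a mean FPKM of at least 5, the genes called lower were 1853 (4235 in the chosen setting), 3 of the induced list (9), 12 of the other pathway lists (23) and 37 of the marker lists (59), with fewer genes tested. Median-ratio scaling gave 2732 genes higher (1269), 13 pathway genes lower and 20 marker genes higher (10). Quantile normalisation gave 2936 higher, 2165 lower and 13 pathway genes lower, and array weights 2090 higher and 17 marker genes higher. The cause of these shifts was not tested.

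With each library left out in turn, 696 to 1583 genes were higher, 2459 to 4417 lower, and 6 to 10 marker genes higher. The higher calls were 809 without HET replicate 2 and 696, 785 and 730 without WT replicate 1, 2 and 3. The lower calls were 2712, 2665 and 2459 without WT replicate 1, 2 and 3, and the marker genes higher were 6 without HET replicate 2. Without any 1 HET library, 1 of the 5 mast cell markers that rose was still called higher, since the other 4 pass the filter through the 3 HET libraries alone.

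Deviations from the genotype mean correlated at -0.0293, 0.132 and 0.322 between same-numbered libraries of replicates 1, 2 and 3. Other pairs lay between -0.344 and 0.249. HET replicates 2 and 3 were nearest to the WT library of the same number, and HET replicate 1 was not. So few libraries cannot tell whether the numbers pair them. With the replicate block, 1167 genes were higher and 3915 lower, 11 and 9 of the induced list.

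The data rest on 3 libraries per genotype. Zbtb16, Tnf, Il1a and the steroid synthesis genes that did not reach the filter are near the limit of detection.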

Other observations

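The 2 nearest protein-coding genes on each side of each of the 10 genes, by RefSeq order on GRCm38.p6, were looked up, 40 in all. Of 24 tested, 2 rose, 9 fell and 13 were not called, where 10.7% of all genes tested rose and 35.7% fell. Of the 9 that fell, Htr3a and Arhgap10 passed the filter through WT levels alone. None of the 8 genes that overlap one of the 10 is in the table (0 found). Near Hsd11b1, which was lower in HET, Lamb3, a laminin chain gene of epithelial basement membrane, averaged 11.2 ± 1.26 FPKM in HET and 2.83 ± 0.416 FPKM in WT, a 3.95-fold rise (limma adjusted p = 0.000115, all 3 HET libraries above all 3 WT libraries). Lamb3 was named after its values were seen. Near Nr3c2, Prmt9 rose 1.20-fold (adjusted p = 0.0444).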
